A study of Homo sapiens with 20 samples.

Results

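The transcripts described here are those of 47 genes for protein folding, secretion and the unfolded protein response of the endoplasmic reticulum (ER), among the 78932 genes of the deposited count table. They were taken as a named list of ER chaperone, translocon, degradation and stress-response genes and matched by symbol to Ensembl identifiers. All 47 were among the 20957 genes with enough counts to be tested. By role they comprised 10 chaperones and folding factors, 6 genes for disulfide formation, 10 for ER-associated degradation, 14 for the translocon and signal peptidase, 2 for the COPII coat, and 5 sensors and transcription factors. Messenger RNA was sequenced in OPM2, an established human multiple myeloma line, which is a cancer of antibody-secreting plasma cells. The cells received panobinostat, an inhibitor of many histone deacetylases (HDACs), at 10 nM or romidepsin, which prefers the class I HDACs, at 10 nM. Others received ricolinostat, which prefers HDAC6, at 100 nM. They were harvested after 2, 5 or 20 h. The DMSO vehicle group has no harvest time in the labels, the batch is listed as unknown, and the treatment field of the ricolinostat samples gives 10 nM where their titles and protocol give 100 nM. Each of the 10 groups had 2 libraries, described by the submitters as independent biological replicates, all from this single line.

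Secreted and membrane proteins enter the ER through the SEC61 channel, lose their signal peptide, fold with the help of chaperones and disulfide isomerases, and leave in COPII vesicles, while misfolded chains are returned to the cytosol for degradation. When folding falls behind, the sensors IRE1 (encoded by ERN1), ATF6 and PERK raise the transcription of these genes, IRE1 by splicing XBP1 mRNA and ATF6 by release of its own transcription factor part. Plasma cells depend on this machinery to secrete antibody, and XBP1 is needed for their secretory state. The counts are per gene and do not separate spliced from unspliced XBP1.

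The stress response acts through short promoter elements, so the promoters that hold them are shown for 7 members whose values are given below. Promoter sequence from RefSeq (GRCh38.p14, 250 bases before to 50 after the start) was matched by symbol for 42 of the 47 genes. Both strands were searched for the ER stress response element ERSE (CCAAT, 9 bases, then CCACG), for ERSE-II (ATTGG, 1 base, then CCACG) and for the core of the unfolded protein response element (TGACGTGG). Where these share bases, each was counted. The lines run 5′ to 3′ on the strand of the gene, with ERSE or ERSE-II in capitals, or their reverse complement where the match was on the other strand. In HYOU1 the first capital run also contains the overlapping TGACGTGG.
HSPA5 (chr9:125241344-125241469, minus strand, ERSE): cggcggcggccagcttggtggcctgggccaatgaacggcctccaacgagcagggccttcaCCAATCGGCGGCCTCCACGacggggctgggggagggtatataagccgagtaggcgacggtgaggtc
CALR (chr19:12938359-12938462, plus strand, ERSE): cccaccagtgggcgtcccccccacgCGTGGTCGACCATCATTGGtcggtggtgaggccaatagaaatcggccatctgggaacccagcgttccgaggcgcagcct
XBP1 (chr22:28800598-28800681, minus strand, ERSE): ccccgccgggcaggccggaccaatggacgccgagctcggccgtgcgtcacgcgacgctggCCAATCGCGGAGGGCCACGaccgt
ERO1B (chr1:236282123-236282208, minus strand, ERSE): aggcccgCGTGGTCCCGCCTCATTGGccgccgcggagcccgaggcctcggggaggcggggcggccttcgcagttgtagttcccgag
HERPUD1 (chr16:56931965-56932047, plus strand, ERSE-II): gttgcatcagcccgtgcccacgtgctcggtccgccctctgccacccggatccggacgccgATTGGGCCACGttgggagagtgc
SDF2L1 (chr22:21642054-21642184, plus strand, ERSE-II): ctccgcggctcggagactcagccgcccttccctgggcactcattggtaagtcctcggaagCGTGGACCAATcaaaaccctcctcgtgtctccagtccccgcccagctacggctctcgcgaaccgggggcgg
HYOU1 (chr11:119057214-119057450, minus strand, ERSE-II): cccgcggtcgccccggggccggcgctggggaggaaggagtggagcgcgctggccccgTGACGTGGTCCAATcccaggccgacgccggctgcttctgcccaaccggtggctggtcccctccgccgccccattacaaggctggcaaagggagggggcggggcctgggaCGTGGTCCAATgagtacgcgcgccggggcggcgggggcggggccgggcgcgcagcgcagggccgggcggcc
The HSPA5 element lay 66 to 48 bases before the start and that of XBP1 52 to 34 bases before it. ERSE was present in 8 of the 42 genes (19%), namely CALR, CANX, CRELD2, ERO1B, HSP90B1, HSPA5, PDIA6 and XBP1, against 0.0916% of the 27305 genes with such promoter windows. ERSE-II was present in 3 (7.14% against 0.0696%), HERPUD1, HYOU1 and SDF2L1. The TGACGTGG core was present in 4 (9.52% against 0.927%), HYOU1, SEC62, SSR3 and SSR4. Together 14 of the 42 genes (33.3%) held at least 1 of the elements, against 1.08% of all genes with windows. The members were chosen as ER and stress-response genes and are themselves among the 27305, so these shares are no test of enrichment. A match is a description of the letters in these windows and not a measured binding site.

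Total counts ran from 17264640 to 29088868 per library. The 47 genes took 1.07% of the counts in both DMSO libraries, 1.21% after 5 h of panobinostat, 0.981% and 0.982% after 20 h of panobinostat, 0.903% and 0.91% after 20 h of romidepsin, and 0.938% and 0.94% after 20 h of ricolinostat. Levels are given below in counts scaled to a common library total (CPM, edgeR) after TMM scaling. The 8 myeloma and plasma cell markers examined (SDC1, TNFRSF17, IRF4, PRDM1, CD38, SLAMF7, FGFR3 and NSD2) summed to 10086 and 10133 CPM in DMSO, with all 8 detected. That sum was 1487 and 1494 CPM after 20 h of panobinostat, 2782 and 2799 CPM after 20 h of romidepsin, and 8511 and 8580 CPM after 20 h of ricolinostat. At those times 8, 7 and 6 of the 8 markers fell, and 0, 1 and 1 rose. Markers of other cells summed to less than 1 CPM per list in DMSO. After 20 h the 3 early B cell markers summed to 15.2 to 16.2 CPM with panobinostat and 15.1 to 16.2 CPM with romidepsin, of which MS4A1 was at 0, and the 3 stromal markers to 33.5 to 35 and 24.5 to 26.5 CPM, nearly all from COL1A1. The 4 myeloid markers then reached 7.59 to 7.75 CPM with panobinostat and 2.71 to 3.04 CPM with romidepsin. T and NK, erythroid and epithelial lists summed to at most 1.1 CPM in every library. The part of these marker changes in the ER gene results was not tested, and in bulk RNA fewer cells of a type and less RNA per cell cannot be told apart.

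The level of the ER genes per length differed widely in the vehicle. In CPM per kb of exon, XBP1 stood highest of the 47 in DMSO at 304, followed by CALR at 208, HSPA5 at 154, HSP90B1 at 148, EDEM3 at 140 and SEC61A1 at 125, with a median of 34.1. The lowest were SEL1L3 at 0.365, DERL3 at 0.324 and ERO1B at 0.174. The 2 libraries of a group were close: among members at 5 CPM or more, the median difference between the 2 libraries of a group was 2.05% of their mean in DMSO. It ran up to 5.02%, in the 2 h panobinostat group. Single members differed more, by up to 10.2% in DMSO (EDEM2) and up to 21.9% at 20 h of ricolinostat (CRELD2).

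Against DMSO more of the ER genes rose than fell at 2 h of panobinostat and ricolinostat, and more fell than rose at 20 h of all 3 inhibitors. A gene is said to rise or fall where its adjusted p was below 0.05 in edgeR's quasi-likelihood test, with Benjamini-Hochberg adjustment over all genes of that contrast. With panobinostat 23 of the 47 rose and 7 fell at 2 h (20.8% and 18.1% of all tested genes did so), 21 rose and 20 fell at 5 h (30.7% and 25.9%), and 12 rose and 31 fell at 20 h (40.8% and 32.3%). With romidepsin 1 rose and 6 fell at 2 h (3.55% and 4.62%), 3 rose and 20 fell at 5 h (13% and 16.5%), and 9 rose and 31 fell at 20 h (38.6% and 29.9%). With ricolinostat 19 rose and 4 fell at 2 h (16.9% and 14.5%), 13 rose and 10 fell at 5 h (18.8% and 15.3%), and 3 rose and 34 fell at 20 h (14.7% and 16.4%). All 9 contrasts use the same DMSO libraries. As these have no harvest time in the labels, effects of the inhibitor and of time in culture cannot be told apart. The median log2 change of the 47 genes at 20 h was -0.41, -0.37 and -0.28 in that order, beside 0.25, 0.22 and 0.03 over all genes tested. Called changes of at least 2-fold were fewer. With panobinostat 3 rose and 2 fell that far at 2 h (6.09% and 4.11% of all genes), 6 and 3 at 5 h (17.6% and 8.67%), and 2 (CRELD2 and ERO1B) and 13 at 20 h (29.5% and 17.8%). With romidepsin there were 0 and 0 at 2 h (0.487% and 0.177%), 0 and 1 (ERO1B) at 5 h (4.51% and 0.649%), and 2 (SEL1L3 and ERO1B) and 10 at 20 h (26.9% and 13.5%). With ricolinostat there were 1 and 1 at 2 h, SYVN1 and ERO1B (2.45% and 2.73%), and 0 and 0 at 5 h (3.45% and 2.3%) and at 20 h (4.7% and 0.582%).

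**Figure D1:**
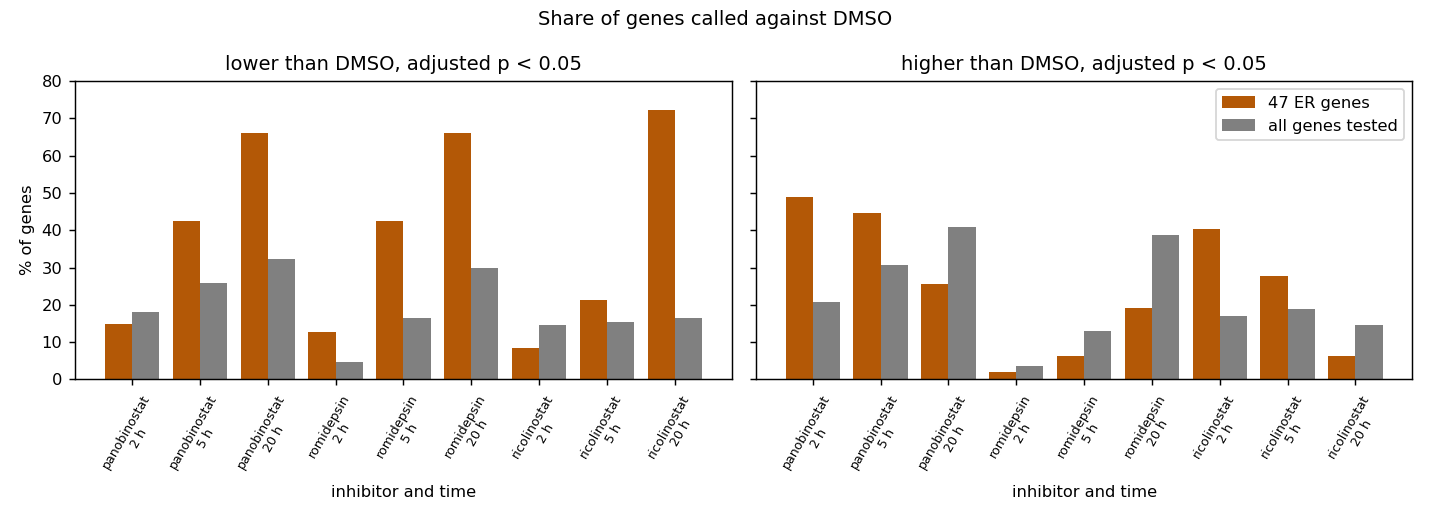
Share of genes that fell (left) and rose (right) against DMSO, in percent, for the 47 ER genes (brown bars) and all genes tested (grey bars), by inhibitor and time. At 20 h, 31, 31 and 34 of the 47 fell with panobinostat, romidepsin and ricolinostat.

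The balance of rises and falls depended on the scaling, as TMM factors moved with treatment from 0.933 and 0.937 in DMSO to 1.165 and 1.146 after 20 h of panobinostat. Scaled by library totals alone, the median of all genes moved by 0.13 at 5 h and 0.30 at 20 h of panobinostat, 0.13 at 5 h and 0.24 at 20 h of romidepsin, and 0.10 at 20 h of ricolinostat. With panobinostat 24 ER genes were then higher and 14 lower at 5 h (35.8% and 21.2% of all genes on that scale), and 17 and 24 at 20 h (49.2% and 25.4%). With romidepsin there were 9 and 5 at 5 h (20.1% and 8.11%), shares near those of all genes, and 16 and 26 at 20 h (46.1% and 23.6%). With ricolinostat there were 6 and 29 at 20 h (20.9% and 10.7%). At 2 h of romidepsin 3 fell on that scale (2.97% of all genes), and 9 with DESeq2 size factors (5.7%). At 2 h of ricolinostat 7 fell with those size factors (17.4%). With library totals alone, at least 2-fold changes at 20 h of panobinostat were 5 higher and 7 lower. The shares of all genes changed that far on that scale are not given here. Of the 23 calls with romidepsin at 5 h, 15 were lost on that scale, so the small falls at that time are given with this limit. Some counts also rested on single libraries. Shares of all genes are not given for those fits, so the counts show only how far the calls moved. Without the second 2 h panobinostat library 14 rose, and without the first or the second 2 h ricolinostat library 9 or 10 rose. Without the first 5 h ricolinostat library 5 rose and 16 fell. Without the second 5 h romidepsin library 10 fell, and without the first 2 h romidepsin library 3 fell. The 3 rises at 5 h of romidepsin became 1 without the first DMSO library, and the 3 at 20 h of ricolinostat 1 without the second.

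**Figure D2:**
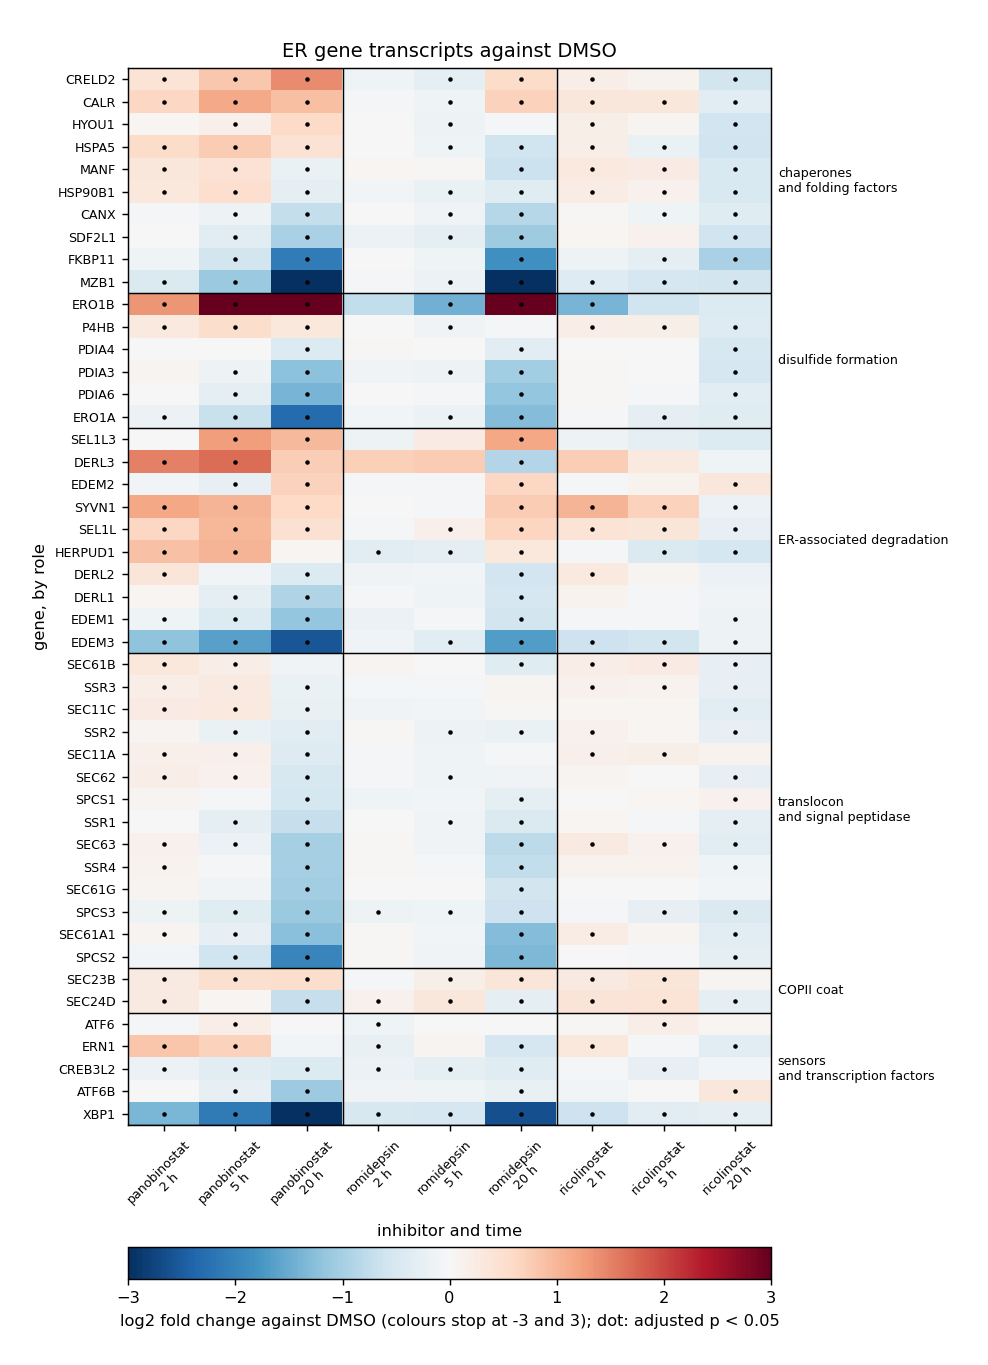
Log2 fold change against DMSO of the 47 ER genes (rows, by role) in each inhibitor and time group (columns); red is higher, blue lower, and a dot marks an adjusted p below 0.05. Colours stop at -3 and 3, so MZB1 (-6.91), XBP1 (-3.68) and ERO1B (3.81) after 20 h of panobinostat are drawn at the limit.

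Among the chaperones and folding factors, 5 of 10 rose and 1 fell at 2 h of panobinostat, 6 rose and 4 fell at 5 h, and 4 rose and 6 fell at 20 h. With romidepsin none was called at 2 h, 8 fell at 5 h, all 8 calls being lost with library totals alone, and 2 rose and 7 fell at 20 h. With ricolinostat 6 rose and 1 fell at 2 h, 3 rose and 4 fell at 5 h, and all 10 fell at 20 h. Of all tested genes 20.8%, 30.7% and 40.8% rose at 2, 5 and 20 h of panobinostat, and 18.1%, 25.9% and 32.3% fell. For romidepsin 3.55%, 13% and 38.6% rose and 4.62%, 16.5% and 29.9% fell. For ricolinostat 16.9%, 18.8% and 14.7% rose and 14.5%, 15.3% and 16.4% fell. HSPA5 (chromosome 9), which encodes BiP, the main Hsp70 chaperone of the ER, stood at 611 and 593 CPM in DMSO and at 878 and 884 CPM at 2 h, 1020 and 1000 CPM at 5 h, and 806 and 810 CPM at 20 h of panobinostat. Its levels were 579 and 613 CPM at 2 h, 554 and 545 CPM at 5 h, and 396 and 404 CPM at 20 h of romidepsin. With ricolinostat HSPA5 was at 689 and 690 CPM at 2 h, 557 and 500 CPM at 5 h, and 403 and 391 CPM at 20 h. All 6 panobinostat libraries lay above DMSO, while the 20 h libraries of the other inhibitors lay below it. The log2 fold changes were 0.55 ± 0.04 (SE), 0.75 ± 0.04 and 0.43 ± 0.04 with panobinostat (adjusted p = 1.6e-24, 2.3e-34 and 1.2e-18). They were -0.59 ± 0.04 after 20 h of romidepsin and -0.60 ± 0.04 after 20 h of ricolinostat, where the 2 h value was 0.20 ± 0.04 and the 5 h value -0.19 ± 0.04. The rise at 2 h of ricolinostat did not pass without the first 2 h library (0.11) or without the second (0.12).

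HSP90B1, the Hsp90 chaperone of the ER lumen, was at 696 and 691 CPM in DMSO and at 867 and 862 CPM at 2 h, 986 and 973 CPM at 5 h, and 558 and 576 CPM at 20 h of panobinostat. Romidepsin gave 645 and 660 CPM at 2 h, 611 and 602 CPM at 5 h, and 539 and 537 CPM at 20 h. The ricolinostat libraries were at 797 and 813 CPM at 2 h, 779 and 736 CPM at 5 h, and 516 and 497 CPM at 20 h. The early rise with panobinostat (0.50 ± 0.04 at 5 h) was followed at 20 h by a log2 change of -0.29 ± 0.04, which was 0.02 with library totals alone. With ricolinostat it rose by 0.22 ± 0.04 at 2 h, a call lost without the second 2 h library (0.13). Its value of 0.13 ± 0.04 at 5 h became -0.03 without the first 5 h library. At 20 h it fell with romidepsin (-0.37) and ricolinostat (-0.45).

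CALR and CANX encode calreticulin and calnexin, the soluble and the membrane-bound lectin chaperone for glycoproteins. At 20 h of panobinostat and romidepsin CALR rose and CANX fell, and at 20 h of ricolinostat both fell. CALR was at 562 and 566 CPM in DMSO and at 872 and 879 CPM at 2 h, 1240 and 1230 CPM at 5 h, and 1070 and 1050 CPM at 20 h of panobinostat. Under romidepsin it stood at 525 and 550 CPM at 2 h, 531 and 507 CPM at 5 h, and 915 and 894 CPM at 20 h. In ricolinostat cells the levels were 712 and 715 CPM at 2 h, 712 and 720 CPM at 5 h, and 444 and 439 CPM at 20 h. All panobinostat libraries and the 20 h romidepsin libraries were above DMSO, and the 20 h ricolinostat libraries below it. Its log2 changes were 1.13 ± 0.04 at 5 h of panobinostat (adjusted p = 1.3e-50), 0.91 ± 0.04 at 20 h, 0.68 ± 0.04 at 20 h of romidepsin and -0.35 ± 0.04 at 20 h of ricolinostat. CANX ranged from 728 CPM in both DMSO libraries to 437 and 448 CPM after 20 h of panobinostat and 399 and 402 CPM after 20 h of romidepsin, log2 changes of -0.72 ± 0.04 and -0.86 ± 0.04. Its ricolinostat libraries were at 756 and 731 CPM at 2 h, 698 and 631 CPM at 5 h, and 568 and 568 CPM at 20 h, with a 20 h change of -0.36 ± 0.04.

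CRELD2, an ER protein induced by folding stress, was at 54.2 and 54.1 CPM in DMSO and at 72.4 and 71.7 CPM at 2 h, 94.5 and 96.7 CPM at 5 h, and 143 and 146 CPM at 20 h of panobinostat. It was at 50.8 and 48.1 CPM at 2 h, 46 and 42.4 CPM at 5 h, and 79.3 and 79.9 CPM at 20 h of romidepsin. For ricolinostat the values were 67 and 58.5 CPM at 2 h, 58.5 and 58.6 CPM at 5 h, and 33 and 41.1 CPM at 20 h. The panobinostat libraries climbed at each time, to a log2 change of 1.42 ± 0.06 (adjusted p = 1.4e-38), the largest rise among the chaperones at 20 h. At 20 h it also rose with romidepsin (0.56 ± 0.06) and fell with ricolinostat (-0.55 ± 0.07). HYOU1, an Hsp70 relative that recharges BiP with ATP, rose at 20 h of panobinostat (0.57 ± 0.04) and fell at 20 h of ricolinostat (-0.57 ± 0.04), and had -0.05 ± 0.04 with romidepsin, which was not called. MANF, a BiP cofactor, rose with panobinostat at 2 and 5 h (0.35 and 0.44) and with ricolinostat (0.30 and 0.24, the latter 0.12 and not called without the first 5 h library), and fell at 20 h with romidepsin (-0.65) and ricolinostat (-0.46). Its value at 20 h of panobinostat was -0.20, or 0.10 with library totals alone.

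MZB1, FKBP11 and SDF2L1 fell at 20 h with all 3 inhibitors. MZB1, a plasma cell ER protein that helps assemble antibody chains, was at 126 and 121 CPM in DMSO and at 94.2 and 88.2 CPM at 2 h, 54.6 and 59.8 CPM at 5 h, and 0.9 and 1.11 CPM at 20 h of panobinostat. Romidepsin libraries held 119 and 120 CPM at 2 h, 111 and 107 CPM at 5 h, and 5.66 and 4.3 CPM at 20 h. MZB1 under ricolinostat stood at 95.9 and 93.5 CPM at 2 h, 86.7 and 88.4 CPM at 5 h, and 82.3 and 87.5 CPM at 20 h. Both 20 h panobinostat libraries were far below every other library, and those of the 3 times did not overlap one another. The log2 change there was -6.91 ± 0.11 (adjusted p = 9.9e-80), against -4.64 ± 0.08 with romidepsin and -0.54 ± 0.06 with ricolinostat. It was the largest fall among all 47 genes with the first 2 inhibitors.

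FKBP11, a prolyl isomerase abundant in secretory cells, was at 42.2 and 39.3 CPM in DMSO and at 38.7 and 35.5 CPM at 2 h, 29.2 and 27.1 CPM at 5 h, and 10.2 and 9.02 CPM at 20 h of panobinostat. Its levels with romidepsin were 40.1 and 40.8 CPM at 2 h, 37 and 38.1 CPM at 5 h, and 11.5 and 11.1 CPM at 20 h. After ricolinostat it was at 36.8 and 36.4 CPM at 2 h, 34.5 and 32.9 CPM at 5 h, and 20.5 and 20.8 CPM at 20 h. The 20 h libraries of all 3 inhibitors were below DMSO, with log2 changes of -2.09 ± 0.09, -1.85 ± 0.09 and -0.98 ± 0.08. The last was the largest fall among the 47 genes after 20 h of ricolinostat. SDF2L1, a partner of the BiP cochaperones, was at 71.1 and 71 CPM in DMSO and at 77.7 and 65.8 CPM at 2 h, 55.2 and 56.1 CPM at 5 h, and 36 and 36.6 CPM at 20 h of panobinostat. It was found at 59.7 and 65.6 CPM at 2 h, 63.7 and 52.2 CPM at 5 h, and 32.2 and 35.2 CPM at 20 h of romidepsin. Ricolinostat libraries had 73.1 and 74.3 CPM at 2 h, 77.9 and 77.4 CPM at 5 h, and 48.3 and 45.4 CPM at 20 h. By 20 h all inhibitor libraries lay below DMSO, with log2 changes of -0.97 ± 0.07, -1.07 ± 0.07 and -0.60 ± 0.07.

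**Figure D3:**
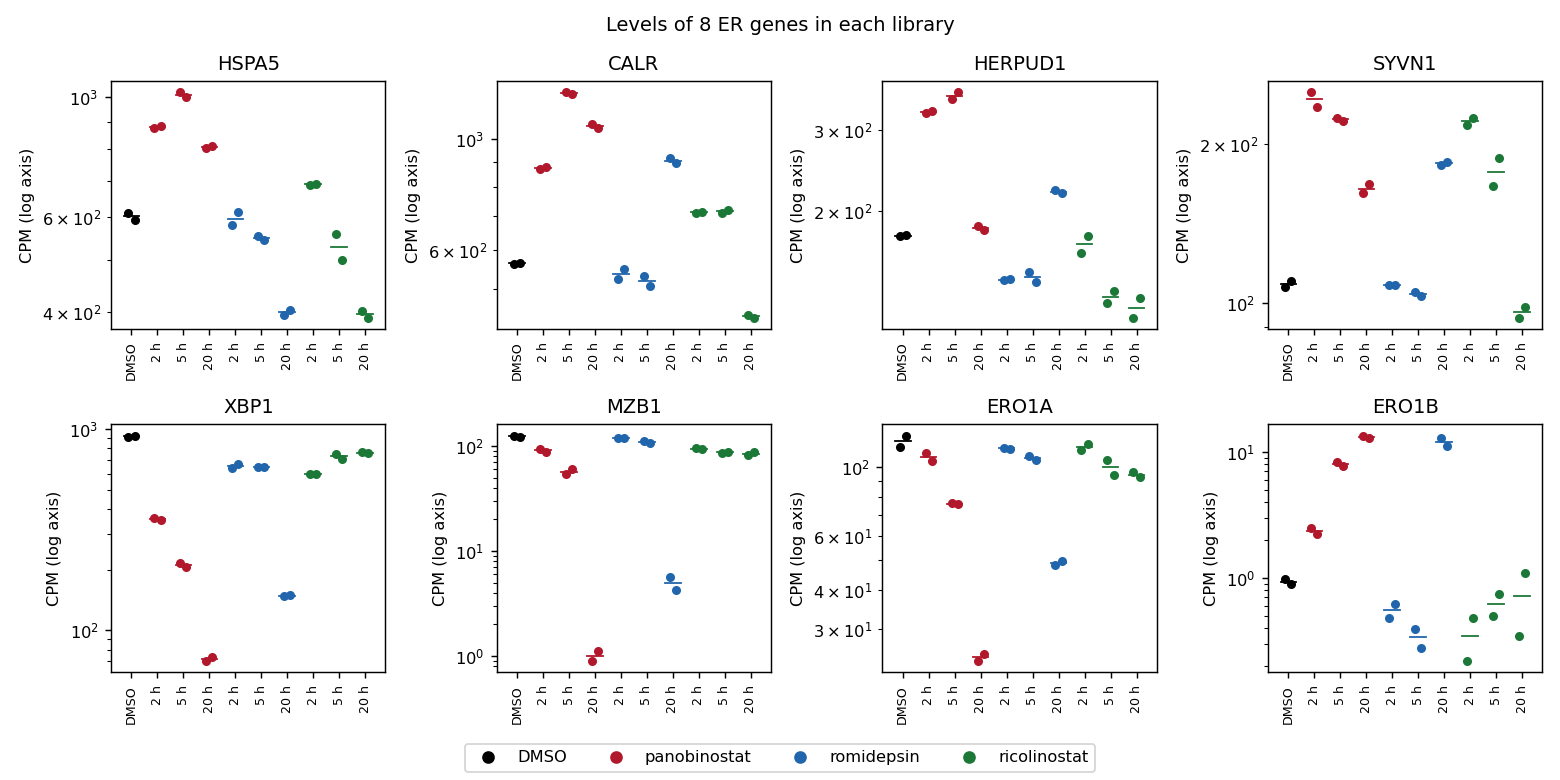
Levels of 8 ER genes in each library (CPM, log axis); points are the 2 libraries of a group and bars their mean, over DMSO and 2, 5 and 20 h of each inhibitor. HSPA5 and CALR lie above DMSO at every time of panobinostat, while XBP1 and MZB1 drop to 70.3 and 0.9 CPM in their lowest panobinostat library.

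Among the disulfide formation genes 3 of the 4 isomerases fell at 20 h with all 3 inhibitors, and the 2 oxidases went opposite ways at 20 h of panobinostat and romidepsin. At 20 h 2 of 6 rose and 4 fell with panobinostat, 1 rose and 4 fell with romidepsin, and 5 fell with ricolinostat. Of all tested genes 40.8% rose and 32.3% fell at 20 h of panobinostat, 38.6% and 29.9% with romidepsin, and 14.7% and 16.4% with ricolinostat. ERO1A, the oxidase that recharges the disulfide isomerases, was at 116 and 126 CPM in DMSO and at 111 and 104 CPM at 2 h, 76.2 and 75.7 CPM at 5 h, and 23.7 and 24.9 CPM at 20 h of panobinostat. Romidepsin brought 115 and 114 CPM at 2 h, 108 and 105 CPM at 5 h, and 48.2 and 49.7 CPM at 20 h. Ricolinostat gave 113 and 118 CPM at 2 h, 105 and 94 CPM at 5 h, and 95.8 and 92.8 CPM at 20 h. ERO1A was below DMSO in every 20 h library, with log2 changes of -2.31 ± 0.06 (adjusted p = 5e-58), -1.30 ± 0.06 and -0.36 ± 0.05. ERO1B, its second form, was at 0.974 and 0.894 CPM in DMSO and at 2.5 and 2.22 CPM at 2 h, 8.32 and 7.67 CPM at 5 h, and 13.5 and 12.8 CPM at 20 h of panobinostat. With romidepsin it was at 0.482 and 0.624 CPM at 2 h, 0.394 and 0.278 CPM at 5 h, and 13 and 11.1 CPM at 20 h. With ricolinostat ERO1B was at 0.219 and 0.476 CPM at 2 h, 0.5 and 0.749 CPM at 5 h, and 0.342 and 1.09 CPM at 20 h. The panobinostat libraries were all above DMSO, and with romidepsin the order turned between 5 and 20 h. The log2 changes were 3.09 ± 0.27 and 3.81 ± 0.26 at 5 and 20 h of panobinostat, -1.44 ± 0.44 at 5 h of romidepsin (adjusted p = 0.0078, and 0.082 without the second 5 h library) and 3.69 ± 0.26 at 20 h. ERO1B remained far below ERO1A in DMSO, at 0.174 CPM per kb of exon, so its low values rest on few counts.

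PDIA3, an isomerase that works with calnexin and calreticulin, was at 203 and 213 CPM in DMSO and at 227 and 217 CPM at 2 h, 190 and 186 CPM at 5 h, and 85.5 and 90.8 CPM at 20 h of panobinostat. The same times gave 196 and 192 CPM at 2 h, 196 and 178 CPM at 5 h, and 100 and 102 CPM at 20 h of romidepsin. The ricolinostat libraries were at 209 and 217 CPM at 2 h, 208 and 203 CPM at 5 h, and 149 and 145 CPM at 20 h. PDIA3 libraries at 20 h were all below DMSO, with log2 changes of -1.24 ± 0.05, -1.04 ± 0.05 and -0.50 ± 0.05. Its pseudogene PDIA3P1 held counts equal to 3.3% of it in DMSO, and how shared reads were assigned is not given in the sources used here. PDIA6 and PDIA4 also fell, with 20 h log2 changes of -1.40, -1.17 and -0.35 for PDIA6 and of -0.40, -0.34 and -0.47 for PDIA4. P4HB, the founding isomerase of the family, differed from them: it rose at all 3 times of panobinostat (0.30, 0.53 and 0.31) and fell at 20 h of ricolinostat (-0.38).

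Among the degradation genes, members of the HRD1 ligase complex rose early with panobinostat while the mannosidase EDEM3 fell. At 2, 5 and 20 h of panobinostat 5, 5 and 5 of the 10 rose and 2, 4 and 4 fell. At 20 h of romidepsin 5 rose and 5 fell, and at 20 h of ricolinostat 1 rose and 5 fell. Of all tested genes 20.8%, 30.7% and 40.8% rose at 2, 5 and 20 h of panobinostat, and 18.1%, 25.9% and 32.3% fell. At 20 h 38.6% rose and 29.9% fell with romidepsin, and 14.7% and 16.4% with ricolinostat. The counts at 20 h of panobinostat were thus near the shares of all genes. SEL1L, the adaptor of the HRD1 ubiquitin ligase, was at 277 and 280 CPM in DMSO and at 416 and 446 CPM at 2 h, 553 and 553 CPM at 5 h, and 374 and 392 CPM at 20 h of panobinostat. It was at 267 and 267 CPM at 2 h, 318 and 298 CPM at 5 h, and 429 and 442 CPM at 20 h of romidepsin. In ricolinostat cells the levels were 361 and 377 CPM at 2 h, 367 and 354 CPM at 5 h, and 234 and 233 CPM at 20 h. SEL1L rose at each time of panobinostat (0.63 ± 0.04, 0.99 ± 0.04 and 0.46 ± 0.04) and at 5 and 20 h of romidepsin, and its early rise with ricolinostat (0.41 ± 0.04) gave way to -0.25 ± 0.04. SYVN1, the HRD1 ligase itself, rose more than SEL1L or HERPUD1 at 2 h of both panobinostat (1.16 ± 0.05) and ricolinostat (1.02 ± 0.05). Its DMSO libraries were at 107 and 110 CPM, the 2 h panobinostat libraries at 250 and 235 CPM and the 2 h ricolinostat libraries at 217 and 224 CPM, against 108 and 108 CPM with romidepsin. SYVN1 shares 7.24% of its exon bases with FAU on the same strand and 6.48% with MRPL49 on the other. In DMSO these held counts equal to 299% and 77.1% of those of SYVN1.

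HERPUD1, a stress-induced organiser of the HRD1 complex, was at 176 and 177 CPM in DMSO and at 327 and 329 CPM at 2 h, 350 and 362 CPM at 5 h, and 185 and 182 CPM at 20 h of panobinostat. Romidepsin showed 141 and 142 CPM at 2 h, 147 and 140 CPM at 5 h, and 222 and 218 CPM at 20 h. For ricolinostat the values were 162 and 176 CPM at 2 h, 126 and 134 CPM at 5 h, and 117 and 129 CPM at 20 h. Panobinostat libraries stood highest at 2 and 5 h and came back to the DMSO level by 20 h, whereas the 2 and 5 h romidepsin libraries lay below DMSO and the 20 h ones above it. The log2 changes were 0.89 ± 0.04, 1.01 ± 0.04 and 0.06 ± 0.05 with panobinostat and -0.32 ± 0.05, -0.30 ± 0.05 and 0.32 ± 0.05 with romidepsin. All but the value at 20 h of panobinostat (adjusted p = 0.25) passed.

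EDEM3, a mannosidase that marks glycoproteins for degradation, was at 1080 and 1100 CPM in DMSO and at 451 and 504 CPM at 2 h, 350 and 352 CPM at 5 h, and 188 and 183 CPM at 20 h of panobinostat. Under romidepsin the levels were 1010 and 1020 CPM at 2 h, 870 and 853 CPM at 5 h, and 340 and 343 CPM at 20 h. EDEM3 under ricolinostat stood at 701 and 724 CPM at 2 h, 760 and 734 CPM at 5 h, and 1000 and 972 CPM at 20 h. Every panobinostat library was below DMSO from 2 h on, with log2 changes of -1.20 ± 0.04, -1.64 ± 0.04 and -2.56 ± 0.04, and the romidepsin fall reached -1.68 ± 0.04 at 20 h. With ricolinostat the fall was largest at 2 h (-0.62 ± 0.04) and was -0.15 ± 0.04 at 20 h, a call lost with library totals alone (-0.04). EDEM2, its relative, was at 23.8 and 21.5 CPM in DMSO and at 21.4 and 21.4 CPM at 2 h, 18.8 and 19.5 CPM at 5 h, and 35.2 and 37.4 CPM at 20 h of panobinostat. It had 22.5 and 21 CPM at 2 h, 21.2 and 23.1 CPM at 5 h, and 35 and 33.9 CPM at 20 h of romidepsin. After ricolinostat it was at 22.3 and 20.7 CPM at 2 h, 23.4 and 25.1 CPM at 5 h, and 29.1 and 27.9 CPM at 20 h. EDEM2 rose at 20 h with all 3 inhibitors, by 0.69 ± 0.09, 0.61 ± 0.09 and 0.33 ± 0.09, and none of those libraries overlapped DMSO. The ricolinostat call was lost without the second DMSO library (0.25). EDEM1 fell, with 20 h changes of -1.15, -0.56 and -0.16, the last not called with library totals alone (-0.06).

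SEL1L3, a relative of SEL1L whose role is less clear, was at 2.92 and 2.53 CPM in DMSO and at 2.5 and 2.87 CPM at 2 h, 6.95 and 6.02 CPM at 5 h, and 4.77 and 5.89 CPM at 20 h of panobinostat. It was counted at 2.59 and 2.33 CPM at 2 h, 3.12 and 3.34 CPM at 5 h, and 6.33 and 5.9 CPM at 20 h of romidepsin. Ricolinostat libraries had 2.71 and 2.18 CPM at 2 h, 2.69 and 1.68 CPM at 5 h, and 2.74 and 1.31 CPM at 20 h. Despite these low levels its rises at 5 and 20 h of panobinostat (1.25 ± 0.24 and 0.98 ± 0.24) and 20 h of romidepsin (1.16 ± 0.24) passed. DERL3, a derlin of secretory cells, was at 1.27 and 1.19 CPM in DMSO and at 3.59 and 3.49 CPM at 2 h, 4.16 and 3.75 CPM at 5 h, and 1.72 and 2.35 CPM at 20 h of panobinostat. The other libraries held 1.8 and 2.25 CPM at 2 h, 2.25 and 1.95 CPM at 5 h, and 0.675 and 0.668 CPM at 20 h of romidepsin. Ricolinostat gave 1.97 and 2.14 CPM at 2 h, 1.35 and 1.68 CPM at 5 h, and 1.41 and 0.816 CPM at 20 h. Its log2 changes were 1.68 ± 0.31 at 5 h of panobinostat and -0.87 ± 0.38 at 20 h of romidepsin, the latter not called with the DESeq2 test (adjusted p = 0.06), with library totals alone or without any 1 of its 4 libraries. Of its exon bases 77% lie opposite SMARCB1, which had 8244 counts in DMSO against 62, and the strand setting of the counting is not given, so these values are uncertain. DERL1 fell at 20 h of panobinostat and romidepsin (-0.90 and -0.51), as did DERL2 (-0.41, or -0.11 and not called with library totals alone, and -0.57). Opposite MIS12 lie 4.71% of the exon bases of DERL2, and opposite TBC1D31 5.59% of those of DERL1. In DMSO MIS12 held counts equal to 96.7% of those of DERL2, and TBC1D31 32.4% of those of DERL1, so these values carry the same uncertainty of strand.

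Most translocon and signal peptidase genes fell by 20 h. At 2 h of panobinostat 8 of 14 rose and 1 fell, and at 20 h 13 fell and none rose. At 20 h of romidepsin 10 fell and none rose, and at 20 h of ricolinostat 11 fell and 1 rose. Of all tested genes 20.8% rose and 18.1% fell at 2 h of panobinostat. At 20 h 40.8% rose and 32.3% fell with it, 38.6% and 29.9% with romidepsin, and 14.7% and 16.4% with ricolinostat. With library totals alone SSR3 was higher at 20 h of panobinostat (0.10, against -0.20 after TMM scaling), SEC11C was at 0.07, and SSR2 at 20 h of romidepsin was at 0.04. SEC61A1, the pore of the channel, was at 586 and 584 CPM in DMSO and at 617 and 626 CPM at 2 h, 499 and 486 CPM at 5 h, and 244 and 247 CPM at 20 h of panobinostat. Its romidepsin libraries were at 593 and 610 CPM at 2 h, 558 and 544 CPM at 5 h, and 242 and 236 CPM at 20 h. With ricolinostat SEC61A1 was at 671 and 693 CPM at 2 h, 613 and 623 CPM at 5 h, and 461 and 467 CPM at 20 h. The level fell by 20 h with panobinostat (-1.25 ± 0.04) and romidepsin (-1.29 ± 0.04), and with ricolinostat (-0.33 ± 0.04), after a rise at 2 h (0.22 ± 0.04) that was lost without the second 2 h library (0.13). The small channel subunit SEC61G fell with the first 2 inhibitors (-1.05 and -0.55), as did SEC63, which couples the channel to BiP (-0.99 and -0.79).

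SPCS2, a subunit of the signal peptidase, was at 130 and 126 CPM in DMSO and at 112 and 128 CPM at 2 h, 85.8 and 84.4 CPM at 5 h, and 32.5 and 32.6 CPM at 20 h of panobinostat. Romidepsin values were 128 and 134 CPM at 2 h, 130 and 106 CPM at 5 h, and 45.7 and 54.2 CPM at 20 h. The ricolinostat libraries were at 126 and 134 CPM at 2 h, 117 and 127 CPM at 5 h, and 106 and 106 CPM at 20 h. It had the largest 20 h fall of the group, -1.97 ± 0.09 with panobinostat and -1.35 ± 0.09 with romidepsin, and -0.27 ± 0.08 with ricolinostat, the last not called with library totals alone (-0.16). Its pseudogene SPCS2P4 held counts equal to 7.53% of it in DMSO. SPCS3 was at 296 and 291 CPM in DMSO and at 262 and 266 CPM at 2 h, 229 and 224 CPM at 5 h, and 134 and 137 CPM at 20 h of panobinostat. It came to 265 and 263 CPM at 2 h, 267 and 273 CPM at 5 h, and 186 and 193 CPM at 20 h of romidepsin. In ricolinostat cells the levels were 273 and 286 CPM at 2 h, 258 and 235 CPM at 5 h, and 219 and 216 CPM at 20 h. This subunit fell, with 20 h changes of -1.11 ± 0.04, -0.63 ± 0.04 and -0.43 ± 0.04, the last being the largest fall of the group with ricolinostat.

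SPCS1, another peptidase subunit, was at 203 and 201 CPM in DMSO and at 221 and 209 CPM at 2 h, 205 and 189 CPM at 5 h, and 133 and 145 CPM at 20 h of panobinostat. It reached 182 and 188 CPM at 2 h, 199 and 181 CPM at 5 h, and 170 and 165 CPM at 20 h of romidepsin. For ricolinostat the values were 201 and 200 CPM at 2 h, 216 and 207 CPM at 5 h, and 224 and 218 CPM at 20 h. SPCS1 was the 1 gene of the group that rose at 20 h of ricolinostat (0.13 ± 0.05, adjusted p = 0.021), but the call was lost with DESeq2 size factors, with the DESeq2 test and without any 1 of the 4 libraries, and 50.7% of its exon bases lie opposite NEK4. SEC11C, a catalytic subunit, was at 87.7 and 89.6 CPM in DMSO and at 102 and 106 CPM at 2 h, 115 and 102 CPM at 5 h, and 69.7 and 80.6 CPM at 20 h of panobinostat. Its other libraries were at 83.5 and 81.2 CPM at 2 h, 84.8 and 82.8 CPM at 5 h, and 90.2 and 91.6 CPM at 20 h of romidepsin. SEC11C under ricolinostat stood at 92.6 and 91 CPM at 2 h, 95.5 and 89.4 CPM at 5 h, and 69.8 and 70.4 CPM at 20 h. SEC11C rose at 2 and 5 h of panobinostat (0.24 ± 0.06, lost without the second 2 h library, and 0.29 ± 0.06), its value at 20 h was -0.23 ± 0.06 (0.07 with library totals alone), and it fell at 20 h of ricolinostat (-0.34 ± 0.06).

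**Figure D4:**
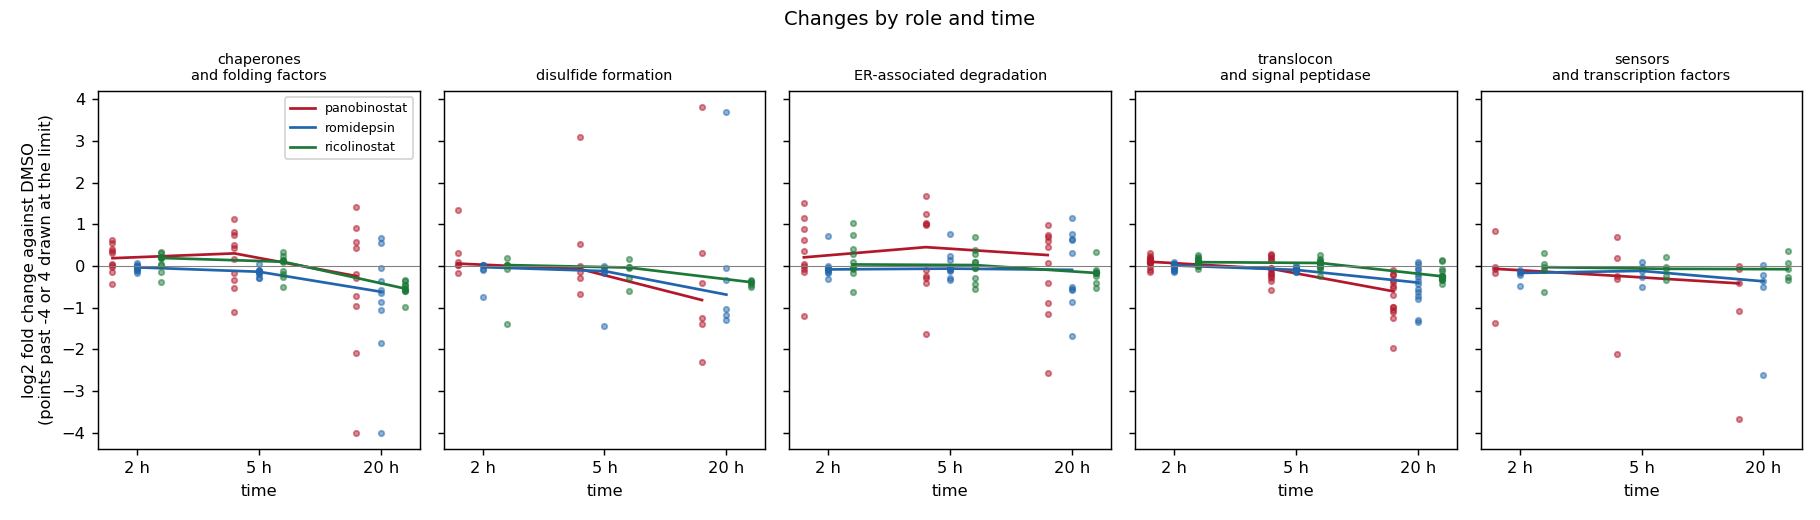
Log2 fold change against DMSO of the genes of 5 roles (points) with their median (lines), at 2, 5 and 20 h of panobinostat (red), romidepsin (blue) and ricolinostat (green); points past -4 are drawn at the limit. At 20 h the translocon and signal peptidase genes have medians of -0.61, -0.40 and -0.25, and the degradation genes 0.26, -0.10 and -0.17.

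The 2 COPII genes separated at 20 h. SEC23B, of the inner vesicle coat, was at 106 and 107 CPM in DMSO and at 124 and 132 CPM at 2 h, 146 and 150 CPM at 5 h, and 149 and 157 CPM at 20 h of panobinostat. The values were 104 and 102 CPM at 2 h, 120 and 121 CPM at 5 h, and 137 and 137 CPM at 20 h of romidepsin. After ricolinostat it was at 128 and 128 CPM at 2 h, 140 and 134 CPM at 5 h, and 117 and 108 CPM at 20 h. SEC23B rose at all times of panobinostat, up to 0.52 ± 0.05, and at 5 and 20 h of romidepsin (0.18 ± 0.05 and 0.36 ± 0.05). Its 2 and 5 h ricolinostat libraries also lay above both DMSO libraries. SEC24D, the cargo-binding partner in the coat, was at 136 and 137 CPM in DMSO and at 158 and 172 CPM at 2 h, 143 and 144 CPM at 5 h, and 80 and 88.7 CPM at 20 h of panobinostat. Its levels came to 148 and 153 CPM at 2 h, 170 and 172 CPM at 5 h, and 109 and 117 CPM at 20 h of romidepsin. Ricolinostat libraries had 179 and 175 CPM at 2 h, 182 and 182 CPM at 5 h, and 110 and 118 CPM at 20 h. SEC24D rose at 2 and 5 h of ricolinostat (0.38 ± 0.05 and 0.42 ± 0.05), at 2 h of panobinostat (0.27 ± 0.05) and at 5 h of romidepsin (0.33 ± 0.05). It was also the 1 member called higher at 2 h of romidepsin (0.14 ± 0.05, adjusted p = 0.048), a call lost with DESeq2 size factors and without any 1 of the 4 libraries. SEC24D fell at 20 h with panobinostat (-0.69 ± 0.05), romidepsin (-0.27 ± 0.05) and ricolinostat (-0.26 ± 0.05). The romidepsin call at 20 h was lost with library totals alone.

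Of the sensors and transcription factors, XBP1 had the largest falls with panobinostat and romidepsin. XBP1 was at 910 and 928 CPM in DMSO and at 361 and 352 CPM at 2 h, 215 and 207 CPM at 5 h, and 70.3 and 73.4 CPM at 20 h of panobinostat. Romidepsin left 643 and 672 CPM at 2 h, 644 and 650 CPM at 5 h, and 148 and 149 CPM at 20 h. Ricolinostat gave 594 and 596 CPM at 2 h, 749 and 712 CPM at 5 h, and 765 and 756 CPM at 20 h. Each inhibitor library was below both DMSO libraries at each time, and panobinostat libraries dropped further at every step. The log2 changes were -1.37 ± 0.04, -2.12 ± 0.04 and -3.68 ± 0.04 with panobinostat (adjusted p = 9.3e-55, 9e-71 and 2.9e-90), and -0.48 ± 0.04, -0.51 ± 0.04 and -2.63 ± 0.04 with romidepsin. With ricolinostat they were -0.63 ± 0.04, -0.33 ± 0.04 and -0.27 ± 0.04, smaller at the later times. In the same panobinostat libraries HSPA5, CALR and SEL1L were higher than in DMSO. These are picked examples: at 20 h more of the 47 genes fell than rose, among them SDF2L1, EDEM1 and SEC61A1.

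ERN1, which encodes the sensor IRE1, was at 83 and 83.5 CPM in DMSO and at 144 and 155 CPM at 2 h, 130 and 141 CPM at 5 h, and 80.7 and 77 CPM at 20 h of panobinostat. It was read at 73.6 and 69.8 CPM at 2 h, 90.4 and 86.9 CPM at 5 h, and 59.1 and 58.6 CPM at 20 h of romidepsin. With ricolinostat ERN1 was at 105 and 103 CPM at 2 h, 73.1 and 86.1 CPM at 5 h, and 65.1 and 67.8 CPM at 20 h. ERN1 rose at 2 and 5 h of panobinostat (0.84 ± 0.06 and 0.70 ± 0.06) and at 2 h of ricolinostat (0.32 ± 0.06), and fell at 20 h of romidepsin (-0.50 ± 0.06) and ricolinostat (-0.33 ± 0.06). ATF6, the second sensor, was at 190 and 184 CPM in DMSO and at 180 and 177 CPM at 2 h, 214 and 216 CPM at 5 h, and 185 and 189 CPM at 20 h of panobinostat. The remaining groups had 168 and 172 CPM at 2 h, 186 and 182 CPM at 5 h, and 190 and 186 CPM at 20 h of romidepsin. The ricolinostat libraries were at 191 and 192 CPM at 2 h, 224 and 210 CPM at 5 h, and 198 and 196 CPM at 20 h. ATF6 rose at 5 h of panobinostat (0.20 ± 0.04) and ricolinostat (0.21 ± 0.04, or 0.05 without the first 5 h library), and at 20 h its values of 0.00 ± 0.04, 0.01 ± 0.04 and 0.07 ± 0.04 did not pass.

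ATF6B, a relative of ATF6 with weaker transcriptional activity, was at 100 and 103 CPM in DMSO and at 102 and 98.6 CPM at 2 h, 87.7 and 84.2 CPM at 5 h, and 47.7 and 47.7 CPM at 20 h of panobinostat. Its libraries were at 95 and 92.9 CPM at 2 h, 95.3 and 92.1 CPM at 5 h, and 87.7 and 86.9 CPM at 20 h of romidepsin. In ricolinostat cells the levels were 95.2 and 96.3 CPM at 2 h, 97.4 and 104 CPM at 5 h, and 127 and 131 CPM at 20 h. At 20 h it fell with panobinostat (-1.09 ± 0.05), rose with ricolinostat (0.35 ± 0.05) and with romidepsin had -0.22 ± 0.05, which was 0.02 with library totals alone. CREB3L2, an ER-bound transcription factor, was at 257 and 261 CPM in DMSO and at 217 and 241 CPM at 2 h, 212 and 203 CPM at 5 h, and 195 and 192 CPM at 20 h of panobinostat. It lay at 223 and 237 CPM at 2 h, 216 and 217 CPM at 5 h, and 198 and 202 CPM at 20 h of romidepsin. For ricolinostat the values were 250 and 259 CPM at 2 h, 220 and 218 CPM at 5 h, and 240 and 249 CPM at 20 h. CREB3L2 fell at each time of panobinostat, to -0.42 ± 0.04, and of romidepsin, to -0.37 ± 0.04, and with ricolinostat at 5 h (-0.24 ± 0.04).

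Panobinostat and romidepsin were given at the same nominal dose, 10 nM, and were compared directly in 3 contrasts, 1 per time. An equal dose need not give equal HDAC inhibition. At 2 h 20.8% of all genes rose and 18.1% fell with panobinostat, against 3.55% and 4.62% with romidepsin. Differences in strength or onset therefore cannot be told apart from other differences between the inhibitors. Relative to panobinostat, 24 of the 47 genes were lower with romidepsin and 3 higher at 2 h (19.8% and 17.3% of all genes), 21 lower and 14 higher at 5 h (25.9% and 24.8%), and 11 lower and 25 higher at 20 h (18.3% and 23.4%). At least 2-fold differences numbered 4 lower and 1 higher (4.67% and 4.11%), 6 and 2 (12% and 7.54%), and 2 and 3 (4.29% and 6.5%). With library totals alone the counts of all called were 21 lower and 5 higher at 2 h (17.9% and 19.7% of all genes on that scale), 21 and 14 at 5 h (26.1% and 24.6%), and 14 and 23 at 20 h (21.7% and 20.5%). Of the 10 chaperones 6 were lower with romidepsin at each time, and 1, 2 and 1 were higher at 2, 5 and 20 h. The higher ones were MZB1 (0.39 ± 0.06 at 2 h and 0.93 ± 0.06 at 5 h) and, at 5 h, FKBP11 (0.42 ± 0.08). HSPA5 was lower at all 3 times (-0.56 ± 0.04, -0.88 ± 0.04 and -1.01 ± 0.04). CALR differed by -1.25 ± 0.04 at 5 h (adjusted p = 7.7e-54) and -0.23 ± 0.04 at 20 h, and CRELD2 by -1.11 ± 0.07 and -0.86 ± 0.06. Of the translocon and signal peptidase genes, 12 of 14 were higher with romidepsin at 20 h and SEC61B was lower (-0.26 ± 0.05).

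Several genes of the degradation group changed sides between the early and the late comparison. HERPUD1 was lower with romidepsin at 2 and 5 h (-1.21 ± 0.05 and -1.31 ± 0.05) and higher at 20 h (0.26 ± 0.04), and SEL1L and SYVN1 did the same, the SYVN1 call at 20 h (0.16 ± 0.05) being lost with library totals alone. EDEM3 was higher with romidepsin throughout (1.09 ± 0.04, 1.29 ± 0.04 and 0.88 ± 0.04), as was XBP1 (0.88 ± 0.04, 1.62 ± 0.04 and 1.05 ± 0.04). ERO1B had the widest gap, -4.53 ± 0.33 at 5 h, and at 20 h a difference of -0.12 ± 0.19 that did not pass (adjusted p = 0.66). MZB1 was higher with romidepsin at 20 h by 2.27 ± 0.18, and ERO1A by 1.01 ± 0.07. Ricolinostat was given at another dose, so its values stand beside those of the other inhibitors with no test between them.

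**Figure D5:**
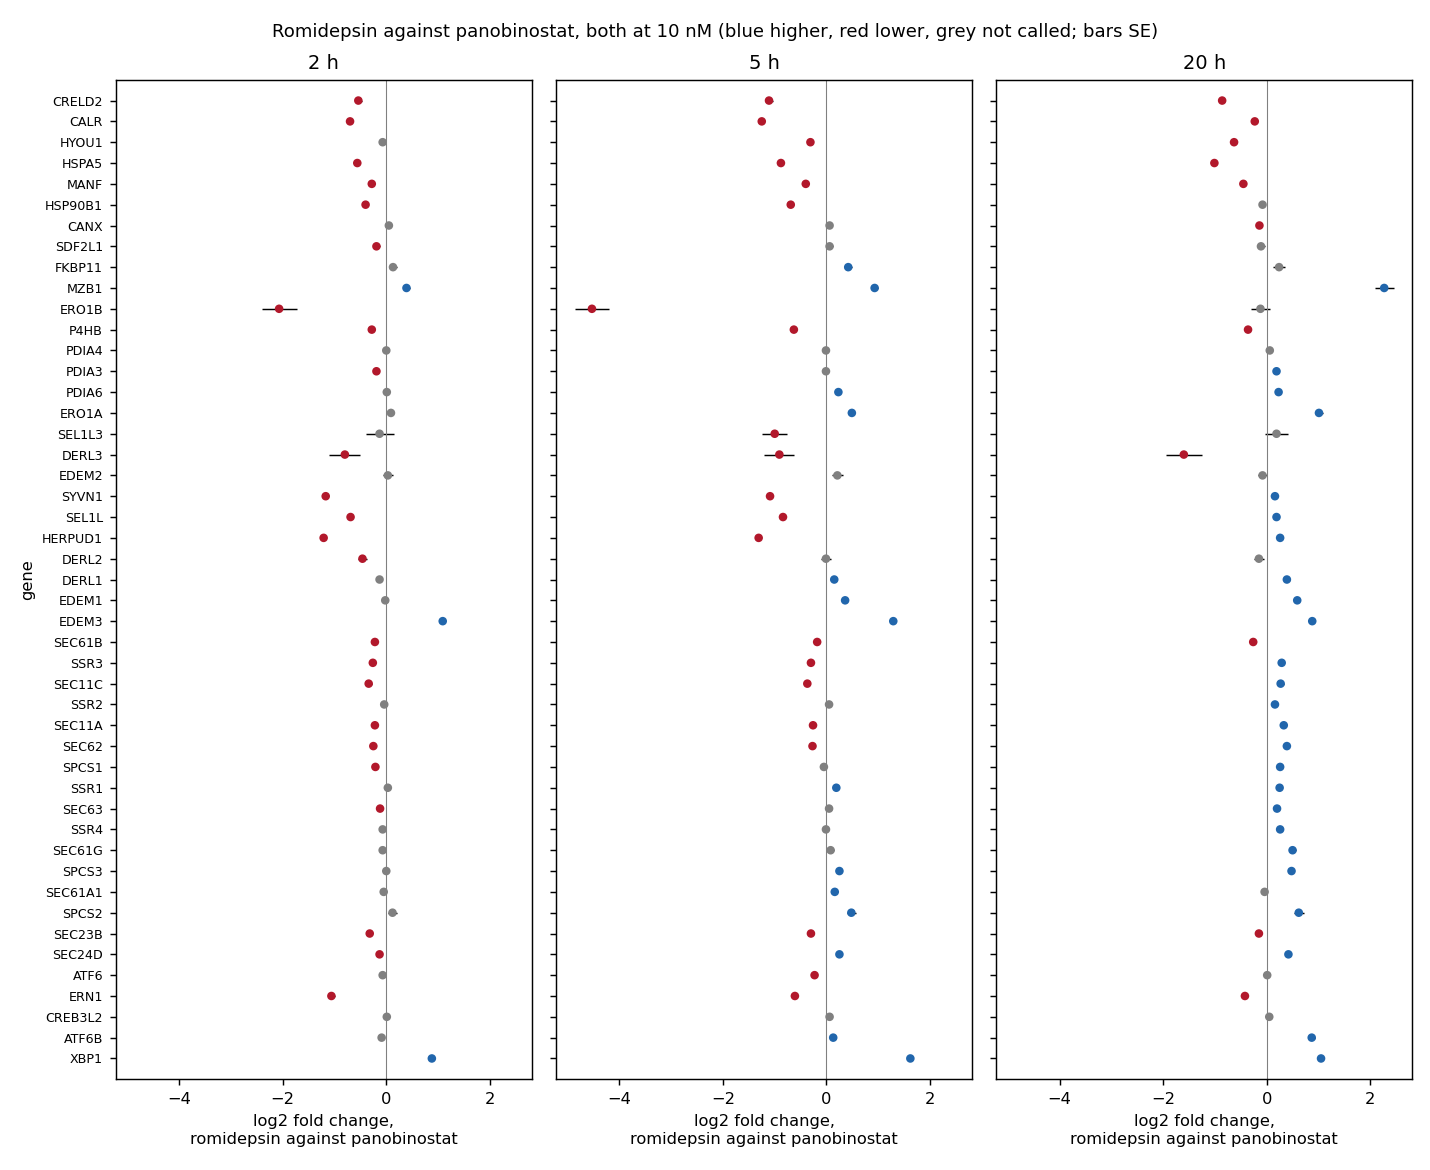
Log2 fold change of romidepsin against panobinostat at 2, 5 and 20 h for each ER gene, with standard errors; blue is higher and red lower with romidepsin at an adjusted p below 0.05, and grey is not called. HSPA5 is lower at all 3 times (-0.56, -0.88 and -1.01) and XBP1 higher (0.88, 1.62 and 1.05).

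Comparisons of successive times within an inhibitor do not use the DMSO libraries, and there most ER genes fell between 5 and 20 h. No vehicle was harvested alongside each time in the labels, so inhibitor and time in culture cannot be told apart in these steps either. From 2 to 5 h 12 of the 47 rose and 26 fell with panobinostat (19.8% and 22.2% of all genes), 4 and 10 with romidepsin (8.4% and 11.9%), and 2 and 10 with ricolinostat (6.69% and 8.58%). From 5 to 20 h 4 rose and 41 fell with panobinostat (27.5% and 28.9%), 11 and 29 with romidepsin (33.4% and 29.4%), and 4 and 30 with ricolinostat (17.2% and 20.7%). The 4 late rises with panobinostat were EDEM2 (0.92 ± 0.09), ERO1B (0.72 ± 0.20), CRELD2 (0.60 ± 0.06) and HYOU1 (0.42 ± 0.04). With romidepsin CRELD2 (0.85 ± 0.07), SYVN1 (0.82 ± 0.05) and CALR (0.80 ± 0.04) were among the 11. With ricolinostat EDEM3 (0.40 ± 0.04) and ATF6B (0.36 ± 0.05) rose, while SYVN1 fell (-0.88 ± 0.05), and HSPA5 had fallen from 2 to 5 h (-0.38 ± 0.04). The early steps depended on scaling and libraries: with library totals alone 17 rose and 16 fell for panobinostat (25.8% and 15.4% of all genes) and 9 and 2 for romidepsin (12.5% and 6.71%), and the 10 early romidepsin falls were 3 without the second 2 h library and 2 without the second 5 h library. The 10 early ricolinostat falls were 6 without the second library of either time.

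The members whose promoter windows held ERSE, ERSE-II or TGACGTGG can be set beside the other matched members. Of all tested genes 20.8%, 30.7% and 40.8% rose at 2, 5 and 20 h of panobinostat, and 18.1%, 25.9% and 32.3% fell. With romidepsin 3.55%, 13% and 38.6% rose and 4.62%, 16.5% and 29.9% fell. With ricolinostat 16.9%, 18.8% and 14.7% rose and 14.5%, 15.3% and 16.4% fell. Of the 14 with an element 9 rose and 1 fell at 2 h of panobinostat, with a median log2 change of 0.20, against 12 and 6 of 28 without, with a median of 0.05. At 5 h of panobinostat 9 rose and 4 fell (median 0.21) against 11 and 14 (median -0.14). At 20 h of panobinostat 5 rose and 8 fell (median -0.24) against 6 and 19 (median -0.41). At 2 h of romidepsin 0 rose and 2 fell (median -0.07) against 0 and 4 (median -0.05), at 5 h 0 and 11 (median -0.15) against 2 and 8 (median -0.08), and at 20 h 4 and 7 (median -0.24) against 5 and 19 (median -0.40). At 2 h of ricolinostat 6 rose and 2 fell (median 0.09) against 12 and 2 (median 0.04), at 5 h 3 and 4 (median 0.05) against 9 and 6 (median 0.02), and at 20 h 0 and 13 (median -0.38) against 2 and 19 (median -0.26). The set with an element thus had the higher median at each time of panobinostat, at 20 h of romidepsin and at 2 and 5 h of ricolinostat. It had the lower one at 2 and 5 h of romidepsin and at 20 h of ricolinostat. HSPA5, CALR and XBP1, which all hold an ERSE, took different directions with panobinostat, as the stretches printed above and their levels show. Many of the falls at 5 h of romidepsin were lost with library totals alone. With an element these were CALR, CANX, CRELD2, HSP90B1, HSPA5, HYOU1, SDF2L1 and SEC62. Without an element they were MZB1, P4HB, ERO1A, SSR1, SSR2 and SPCS3. No test was made of the differences between the members with and without an element.

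Related ER and stress genes outside the list were counted in 5 further lists. In the PERK and ATF4 arm, which slows translation and induces stress genes, 7 of 13 tested genes rose and 3 fell at 2 h of panobinostat, and 7 rose and 4 fell at 20 h. At 20 h of romidepsin 5 rose and 5 fell, and at 20 h of ricolinostat 3 rose and 6 fell. Of all tested genes 20.8% rose and 18.1% fell at 2 h of panobinostat. At 20 h 40.8% rose and 32.3% fell with it, 38.6% and 29.9% with romidepsin, and 14.7% and 16.4% with ricolinostat. The 5 rises with romidepsin were thus near the share of all genes. DDIT3, the stress factor CHOP, was at 6.39 and 6.67 CPM in DMSO, 53.9 and 52.1 CPM after 20 h of panobinostat and 43.2 and 38.2 CPM after 20 h of romidepsin, log2 changes of 3.02 ± 0.11 and 2.64 ± 0.12. ATF3, a stress-induced factor, changed by 3.41 ± 0.09 and 3.16 ± 0.09 at the same time. In the same libraries 2 genes for which the arm is named, which fall outside the rule for named genes and were chosen after their values were seen, fell. ATF4 fell from 590 and 587 CPM in DMSO to 264 and 267 CPM with panobinostat and 296 and 291 CPM with romidepsin, and EIF2AK3, which encodes PERK, changed by -1.73 ± 0.05 and -0.66 ± 0.05.

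Among 26 other ER folding factors, 9 rose and 14 fell at 20 h of panobinostat, 7 and 12 at 20 h of romidepsin, and 2 and 12 at 20 h of ricolinostat. For this and the following lists the shares of all tested genes were 40.8% and 32.3%, 38.6% and 29.9%, and 14.7% and 16.4%. TXNDC5, a disulfide isomerase abundant in plasma cells, fell with panobinostat and romidepsin (-3.87 ± 0.06 and -2.22 ± 0.05). Among 20 other ER-associated degradation genes the counts were 7 and 12, 7 and 11, and 2 and 8. UBE2J1, the ER-bound ubiquitin-conjugating enzyme that works with HRD1, fell from 897 and 893 CPM in DMSO to 15.5 and 15.8 CPM with panobinostat (-5.84 ± 0.05) and 62.4 and 66.1 CPM with romidepsin (-3.80 ± 0.05). Of 21 oligosaccharyltransferase and signal recognition particle genes 5 rose and 14 fell, 5 and 15, and 1 and 13, with TRAM1, a translocon-associated membrane protein, at -2.12 ± 0.04 with panobinostat and -1.37 ± 0.04 with romidepsin. Of 22 other ER to Golgi transport genes 6 rose and 12 fell, 2 and 12, and 0 and 16. MIA3, which loads bulky cargo into COPII carriers, was an exception and rose by 1.28 ± 0.05 with panobinostat and 1.15 ± 0.05 with romidepsin.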

How the data were processed

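RNA was sequenced from 20 libraries of OPM2 cells in 10 groups of 2. The deposited values are the authors' raw read counts per Ensembl gene. The submitters' processing notes name HISAT2, SAMtools and featureCounts, and the build GRCh38. Of the counting, neither the annotation release nor the strand setting is given in the sources used here. Without the strand setting, reads of overlapping genes on opposite strands cannot be told apart.

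From the counts, 20957 genes passed edgeR's filterByExpr (minimum count 10). TMM scaling and 1 robust quasi-likelihood fit over all libraries (edgeR 4.0.16, R 4.3.3) gave log2 fold changes with standard errors and two-sided p-values for 18 contrasts: 9 with DMSO, 3 of romidepsin with panobinostat and 6 between successive times. P-values were Benjamini-Hochberg adjusted within a contrast over all genes, with a threshold of 0.05. CPM are edgeR's, after TMM. The biological coefficient of variation was 0.0419. Total counts per library ran from 17264640 to 29088868. Same-numbered replicates did not deviate together, so no pairing was used. The fit was checked on simulated data in which few genes changed, up or down at random, in a single group. That setting cannot check the scaling at 20 h, where many more genes changed. Positions, exon lengths and overlaps came from GENCODE 29 (GRCh38), and promoters from RefSeq (GRCh38.p14).

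Any of the 47 genes may be named. Levels in all libraries are given for a preset panel and for the largest 20 h rise and fall of each role and inhibitor, and the lists outside the 47 have up to 3 named genes per contrast. The members and lists were chosen with earlier results of these data known. Alternatives were DESeq2 size factors, no filter on low counts, the Wald test of DESeq2 1.42.0, a replicate block, each library left out, and library totals without TMM, the last added after seeing the data.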

Additional observations from a re-analysis of the deposited data

Results flagged for a closer look

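Panobinostat and romidepsin, both at 10 nM, moved some ER genes in opposite directions against the shared DMSO libraries, with a direct difference that also passed (edgeR quasi-likelihood test, Benjamini-Hochberg adjusted). Values are log2 changes, romidepsin minus panobinostat. At 2 h these were HERPUD1 at -1.21 (panobinostat 0.89, romidepsin -0.32 against DMSO) and ERN1, which encodes IRE1, at -1.06 (0.84 and -0.22). At 5 h they were the chaperones CALR at -1.25 (1.13 and -0.12), CRELD2 at -1.11 (0.82 and -0.29), HSPA5 at -0.88 (0.75 and -0.13), HSP90B1 at -0.69 (0.50 and -0.19) and HYOU1 at -0.31 (0.16 and -0.15). The others at 5 h were ERO1B at -4.53 (3.09 and -1.44), HERPUD1 at -1.31 (1.01 and -0.30), P4HB at -0.63 (0.53 and -0.10) and SEC62 at -0.27 (0.14 and -0.14). At 20 h HSPA5 differed by -1.01 (0.43 and -0.59) and DERL3 by -1.60 (0.73 and -0.87), where DERL3 overlaps SMARCB1.

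With library totals alone the romidepsin falls at 5 h of CALR, CRELD2, HSPA5, HSP90B1, HYOU1, P4HB and SEC62, and that of ERN1 at 2 h and of DERL3 at 20 h, no longer passed, whereas all 35 direct differences called at 5 h did. The opposite directions of those genes against DMSO therefore depended on the scaling. With DESeq2 size factors the panobinostat rise of SEC62 at 5 h (0.12) did not pass either, and 34 of the 35 direct differences at 5 h did, without ATF6B. The cause of these differences was not tested.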

How the results depend on the processing

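Counts below are of the 47 members called. A count without a share of all genes beside it shows only how far the calls moved. With library totals alone, at least 2-fold falls at 20 h of panobinostat numbered 7 and rises 5. Falls numbered 3 at 2 h (2.97% of all genes on that scale) and 5 at 5 h of romidepsin (8.11%), and rises 9 at 5 h (20.1%) and 16 at 20 h (46.1%). Rises numbered 6 at 20 h of ricolinostat (20.9%) and 5 for romidepsin over panobinostat at 2 h (19.7%). From 2 to 5 h there were 16 falls with panobinostat (15.4%), 2 falls (6.71%) and 9 rises (12.5%) with romidepsin, and 5 rises with ricolinostat (9.44%). Single values that changed sign were, at 20 h of panobinostat, HSP90B1 0.02, MANF 0.10, SSR3 0.10 and SEC11C 0.07; at 5 h of romidepsin, CALR 0.01, CANX 0.03, P4HB 0.02, SSR1 0.02 and SPCS3 0.01; and at 20 h of romidepsin, SSR2 0.04 and ATF6B 0.02.

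The DESeq2 test gave 11 falls and 0 rises at 2 h of romidepsin, 0 at least 2-fold rises at 2 h of ricolinostat and 1 such fall at 20 h. DESeq2 size factors gave 0 rises at 2 h of romidepsin, 7 falls and 0 at least 2-fold rises at 2 h of ricolinostat, and 1 at least 2-fold fall at 20 h. Without the filter there were 0 rises at 2 h of romidepsin, 2 falls from 2 to 5 h of romidepsin and 1 rise from 2 to 5 h of ricolinostat. The cause of these shifts was not tested.

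With 1 library left out, the lone library being assumed to vary like the others, rises ranged from 14 to 20 at 2 h of panobinostat, 9 to 15 at 2 h, 5 to 10 at 5 h and 1 to 2 at 20 h of ricolinostat, 0 to 0 at 2 h and 1 to 2 at 5 h of romidepsin, and 1 to 2 from 2 to 5 h of ricolinostat. Falls ranged from 3 to 7 at 2 h and 10 to 20 at 5 h of romidepsin, 10 to 16 at 5 h of ricolinostat, 2 to 8 from 2 to 5 h of romidepsin and 6 to 12 from 2 to 5 h of ricolinostat. At least 2-fold calls ranged from 0 to 1 for rises and falls at 2 h of ricolinostat, 0 to 1 for falls at 5 h of romidepsin and 0 to 2 for falls at 20 h of ricolinostat. At 5 h of ricolinostat HSP90B1 ranged from -0.03 to 0.13, SEC63 from -0.01 to 0.14 and SSR3 from -0.01 to 0.09, each lowest without the first 5 h library.

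A replicate block left 31 falls and 12 rises at 20 h of panobinostat, as without it, and moved no count by over 1.5 times. Deviations of same-numbered replicates had correlations from -0.12 to 0.08 over 45 group pairs, so the numbers did not pair the samples. With 2 libraries per group, depth limits ERO1B, DERL3 and SEL1L3 most, at under 3 CPM in DMSO.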
